A study of Pan troglodytes with 38 samples.

Results

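Shelterin is the protein complex that coats the telomeres, the repeat tracts at the ends of chromosomes. Its 6 genes, TERF1, TERF2, TERF2IP, POT1, TINF2 and ACD, were measured here in the hearts of 38 chimpanzees (Pan troglodytes). They were taken as the rows of the chimpanzee gene count table whose Ensembl identifier carries one of these symbols. All 6 were found, 1 row each, among 31373 annotated genes. All 6 also passed the filter of at least 6 CPM (the count of a gene scaled to a library of 1000000 counts) in at least 1 animal, as did 13121 genes of the table. The identifiers are ENSPTRG00000022919 for TERF1, ENSPTRG00000008281 for TERF2, ENSPTRG00000008365 for TERF2IP, ENSPTRG00000022535 for POT1, ENSPTRG00000006208 for TINF2 and ENSPTRG00000008238 for ACD.

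The study sequenced polyadenylated RNA from post-mortem heart tissue, with 1 library per animal and no treatment of its own, to ask how variable the expression of each gene is between individuals. By the sample table of the study, RNA of 17 animals was extracted in 2016, and each of these is listed there as a published library that was sequenced again (the methods text counts fewer), while RNA of the other 21 was extracted in 2018, so year and kind of library cannot be told apart. There were 22 female and 16 male animals from several primate centers and a zoo, and 34 of them have a recorded age, between 10 and 57 years. RNA integrity numbers (RIN), low where RNA is degraded, ran from 2.5 to 8.4, and 7 animals of 2018, all from a single center, carry a note of infection with HBV, HCV or both, with which some of these chimpanzees had been challenged. Another animal of that center and year, 4X0357, is noted as exposed to a virus and negative in the test. Some of the animals are close relatives by the pedigree of the study, and the tests here took them as independent. The human samples of the study were not analysed here.

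TERF1 and TERF2 encode the proteins that bind the double-stranded telomere repeat. TERF2IP (RAP1) is carried to the telomere by TERF2. TINF2 (TIN2) joins TERF1 and TERF2 to ACD (TPP1), and ACD in turn holds POT1, which covers the single-stranded overhang and is known to keep the ATR kinase silent there, as TERF2 does for the ATM kinase. ACD is also the subunit that recruits telomerase. In the adult heart most cardiomyocytes no longer divide, so that these genes are expressed in a tissue with little telomere replication.

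Totals on orthologous exons were between 14408012 and 81603350 counts. Mitochondrial genes took between 17.2% and 60.1% of the counts of the gene count table. All 10 cardiomyocyte markers were expressed. The libraries of 6 animals stood apart from the rest, with median correlations with the other libraries between 0.749 and 0.885, where the next lowest was 0.909. They are 495, 529, 537, 558, 4X0354 and Little_R, all of 2018, with totals between 14408012 and 26120173, where of the others only 4X0339 lay below 26120173 (24038347), and mitochondrial shares between 42.99% and 60.1%. Their orthologous exon totals were 63.5% to 91.4% of the gene counts outside mitochondrial genes (median 77.2%), against 80.1% to 90.3% in the other 32 (median 87.5%). Their CPM thus depends on the total chosen. Results that rest on these 6 libraries are given with and without them, apart from the variability of genes outside shelterin.

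TERF1, which controls telomere length by its binding to the repeat, was measured at 31.02 ± 6.15 CPM (SD, n = 38). Its lowest value was 14.6 CPM in 4X0339, its median 31.95 CPM and its highest 47.0 CPM in 4x0519. TERF2, which holds the telomere in its protected looped form, was measured at 21.9 ± 3.44 CPM (SD, n = 38). It ran from 13.2 CPM in 529 over a median of 21.4 CPM to 31.4 CPM in 4x0519. The second lowest TERF2 value was 16.2 CPM in 4X0354, and the remaining animals lay above 18 CPM. Thus the lowest pair of TERF2 values came from libraries that stood apart, while the highest came from 2016. In the 15 libraries of 2018 that did not stand apart, TERF2 varied between 19.2 and 24.3 CPM, a coefficient of variation (CV) of 7.61%. Its CV was 16.8% in the 17 animals of 2016 and 14.2% in all 32 libraries that did not stand apart.

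TERF2IP, the partner of TERF2, was measured at 82.6 ± 13.1 CPM (SD, n = 38). It was lowest in 4X0339 at 55.2 CPM, had a median of 80.2 CPM and was highest in 4x523 at 110 CPM. The library 4X0339 thus held the lowest value of both TERF1 and TERF2IP, and it had the lowest RIN of the series (2.5) and a mitochondrial share of 51.7%. The part of these in the low values was not tested. TINF2, the bridge of the complex, was measured at 42.5 ± 10.4 CPM (SD, n = 38), between 27.8 CPM in 554 and 65.8 CPM in Little_R with a median of 40.01 CPM. Its 3 highest values on this scale, in Little_R, 537 and 495, were all from libraries that stood apart, and above the highest of the other 32 animals, 62.2 CPM in 570. TMM library sizes, another way to scale the counts, were 1.34 times the orthologous exon totals in 537 and 1.33 times in 495. They were 1.14 times these totals in Little_R and 1.18 times in 570. The order of these animals in TINF2 thus depends on the scaling.

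POT1, the single-strand binding subunit, was measured at 30.5 ± 12.03 CPM (SD, n = 38). It was lowest in 529 at 15.5 CPM, with a median of 27.03 CPM, and highest in 338 at 73.6 CPM. The next highest values were 56.7 CPM in 4X0354 and 55.2 CPM in 676, from 1 library that stood apart and 1 that did not, so that the high hearts fell in both years. ACD, the telomerase recruiter, was measured at 11.7 ± 7.74 CPM (SD, n = 38), from 5.32 CPM in 88A020 over a median of 9.27 CPM to 37.9 CPM in 537. Between its lowest and highest animal ACD differed 7.13-fold, POT1 4.76-fold, TERF1 3.23-fold, TERF2 2.38-fold, TINF2 2.37-fold and TERF2IP 2.002-fold. Counting error at the median count was between 1.74% for TERF2IP and 5.21% for ACD, well under the CV of each gene over the animals, which was 15.7% for TERF2, 15.9% for TERF2IP, 19.8% for TERF1, 24.5% for TINF2, 39.4% for POT1 and 66.3% for ACD. In bulk tissue, fewer cells of a type and less RNA per cell cannot be told apart. Levels were not ordered between the genes, since they are not per transcript length.

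**Figure D1:**
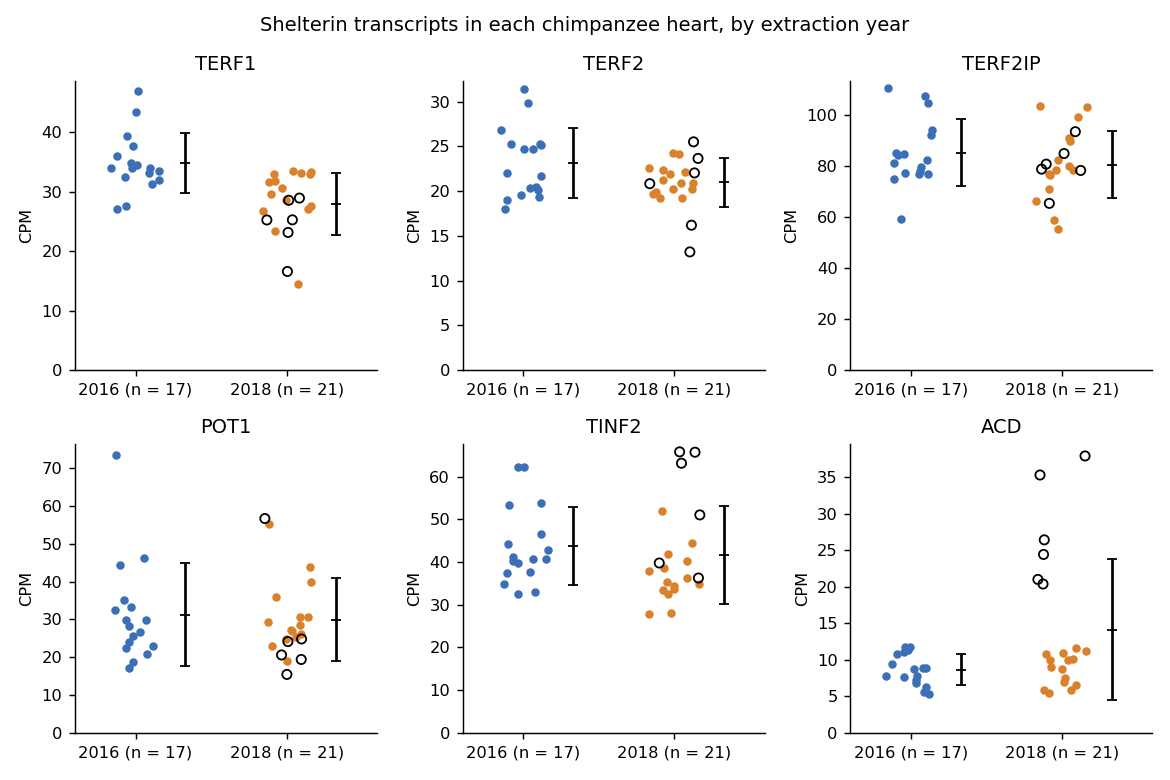
CPM of each shelterin gene (vertical axis) in each heart, by year of RNA extraction (horizontal axis). Filled points are single animals, open circles are the 6 libraries that stood apart, and bars give the mean and SD of each year. The open circles of ACD lie at 20.4 CPM or more, above every filled point. Those of TERF2 and TERF2IP lie within or below the range of the filled points of both years. In 2018 alone the TERF2 circle of 495 (25.5 CPM) lies above the highest filled point (24.3 CPM).

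To compare variability between genes of unlike mean, the overdispersion of each gene in a negative binomial model was set against the trend of all 13121 genes on mean expression. Dispersion is the difference from this trend on the natural log scale, so that a value below 0 means less variation between animals than genes of the same mean show. These values are descriptions without a test, since TERF2 was chosen for its low variability. TERF2 had a dispersion of -1.71 (SE 0.310), and 1.30% of genes were lower. In terms of a CV between animals beyond counting error, TERF2 varied by 15% where the trend at its mean lay at 35.3%.

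TERF2IP, which depends on TERF2 at the telomere, had the next lowest dispersion of the complex, -1.33 (SE 0.235), with 5.64% of genes lower. Its CV beyond counting error was 15.7% against a trend of 30.4%. TERF1 had a dispersion of -0.98 (SE 0.375) and TINF2 of -0.66 (SE 0.229), with 14.9% and 26.6% of genes lower. In all, 4 of the 6 genes (66.7%) lay below the trend, near the share of all genes that did (55.1%). POT1 lay on the trend with 0.08 (SE 0.275), and ACD above it with 0.48 (SE 0.349), and neither was further from 0 than 2 SE.

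**Figure D2:**
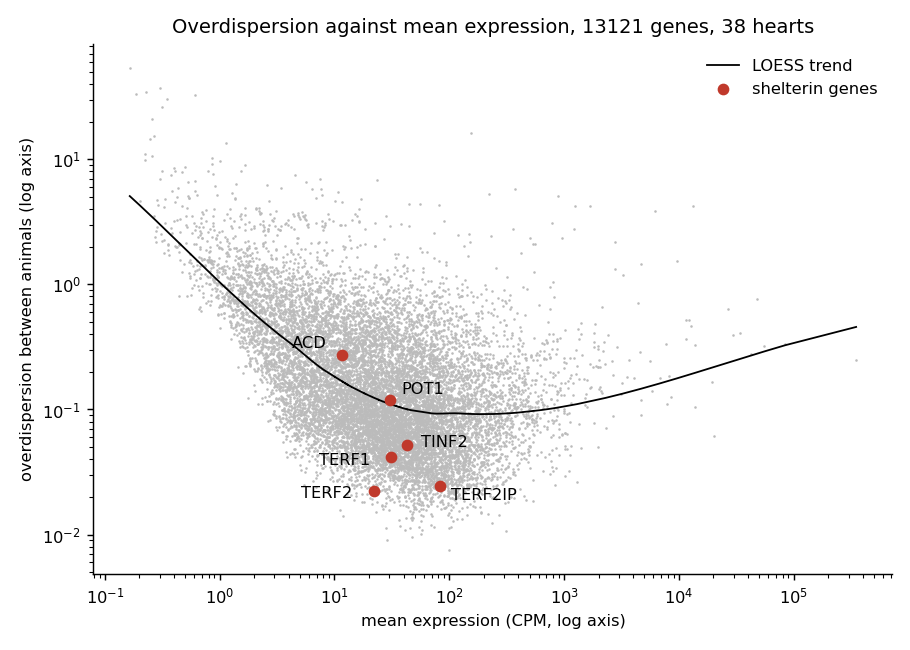
Overdispersion between the 38 animals (vertical log axis) against mean expression in CPM (horizontal log axis) for 13121 genes in grey, with the LOESS trend as a line and the shelterin genes in red. TERF2 lies near the lower edge of the cloud, while POT1 lies on the line and ACD above it.

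The place of ACD above the trend depended on the 6 libraries that stood apart and on the library size. Without the libraries its dispersion was -0.79, and in the RNA of 2016 alone, which holds none of them, it was -0.80. With the total of the gene count table, mitochondrial counts included, as the library size it was -0.38 over all 38 animals. On that scale TERF1 moved to -0.06 with 53.5% of genes lower, TERF2IP to -0.45 with 29.6% lower and TERF2 to -0.72 with 15.9% lower. With mitochondrial counts taken out of that total, TERF1 was at -0.71, TERF2IP at -1.12, TERF2 at -1.55 with 1.97% of genes lower, and ACD at 0.33. With TMM library sizes TINF2 moved to -1.36 with 5.22% of genes lower, close to TERF2 at -1.42 with 4.38% lower. TERF2IP was then at -1.003, TERF1 at -0.54, POT1 at 0.28 and ACD at 0.11. The 5 other genes kept the sign they had over all animals when the 6 libraries were left out, with -1.47 for TERF2, -0.71 for TERF2IP, -0.68 for TERF1, -0.45 for TINF2 and 0.45 for POT1. TERF2 was at -2.16 in the RNA of 2018 alone and at -1.02 in that of 2016 alone, and over leaving out each animal in turn it stayed between -1.91 and -1.59. The dispersion of POT1 depended on single hearts. Without 338, its highest animal, it was -0.18, and without 676 it was -0.0011.

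The other genes of telomere maintenance were taken from lists of 63 genes, of which 60 have a row and 55 passed the filter. Of these, 45 (81.8%) lay below the trend with a median dispersion of -0.73, where the median of all genes was -0.12. The telomerase list, which holds the proteins that assemble and carry the telomerase RNA, had 11 of 11 genes below 0, between -1.33 and -0.53. The kinases and adaptors that answer to unprotected ends had 11 of 12 below 0, and the nucleases, helicases and other partners of shelterin 13 of 18. CTC1, STN1 and TEN1 with primase had 5 of 6 below 0, and the chromatin and recombination list 5 of 8.

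The lowest values among these were -1.82 (SE 0.344) for RNF168, a ubiquitin ligase at DNA breaks, -1.72 (SE 0.257) for POLA1, the catalytic subunit of DNA polymerase alpha, and -1.57 (SE 0.288) for WRN, the Werner syndrome helicase. The value of TERF2 lay between those of POLA1 and WRN. The highest were 1.11 (SE 0.801) for NR2C1, an orphan nuclear receptor, 0.82 (SE 0.306) for RTEL1, a helicase that unwinds telomere loops, and 0.56 (SE 0.161) for HMBOX1, which binds the telomere repeat. NR2C1, RTEL1 and HMBOX1 also differed between the extraction years, as given further on. Their pooled dispersion holds this difference, and its part was not tested. Dispersions of the telomere lists are given over all 38 animals only, and not without the libraries that stood apart. TERT, the catalytic subunit of telomerase, has 2 rows, and the one with more counts was under the filter, with 0 counts in 31 of 38 animals and at most 0.069 CPM. The genes of the meiotic telomere complex were under it too, with at most 0.709 CPM for TERB1 and 0.656 CPM for MAJIN.

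**Figure D3:**
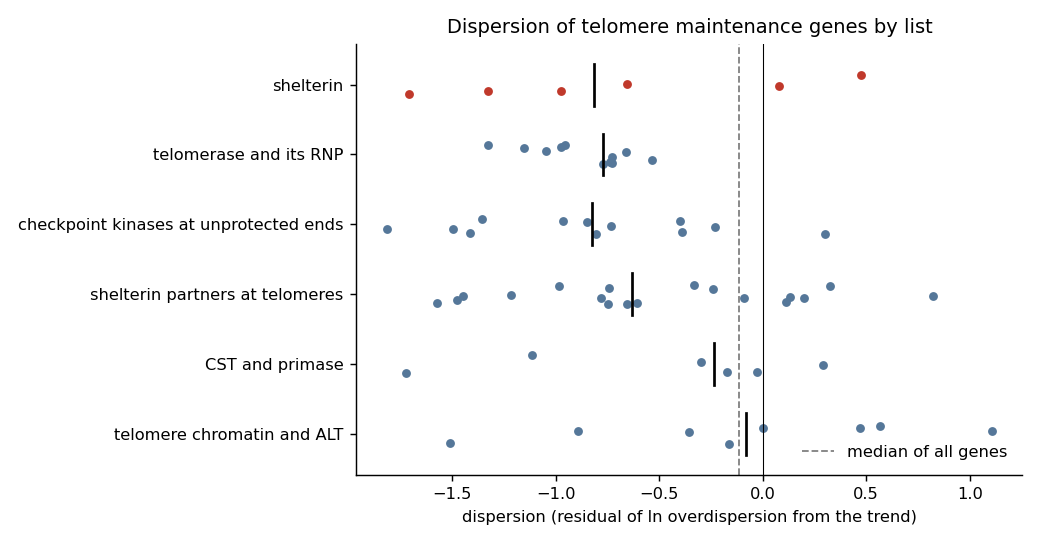
Dispersion (horizontal axis, residual of ln overdispersion from the trend) of the genes of each telomere list, 1 point a gene, with the median of each list as a black bar and that of all genes as a dashed line. The 11 points of the telomerase list all lie left of 0, and the shelterin points run from -1.71 (TERF2) to 0.48 (ACD).

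ACD was the member that most set the libraries that stood apart from the rest. It was at 37.9 CPM in 537, 35.3 CPM in 495, 26.5 CPM in 529, 24.5 CPM in 558, 21.03 CPM in 4X0354 and 20.4 CPM in Little_R. The other 32 animals lay between 5.32 and 11.7 CPM with a median of 8.80 CPM, so that the ranges did not overlap. Of all 13121 genes, 3.17% were likewise higher in all 6 libraries than in any other and 0.762% lower. These libraries were picked by the median correlation of their whole profile, in which ACD has a small part. Their number was set after the data were seen. The step from the last of them to the next library (0.885 to 0.909) was smaller than that from Little_R to 537 (0.749 to 0.819). The lack of overlap in ACD is thus a description, and no test was made. The other members overlapped. TERF2 was between 13.2 and 25.5 CPM in the 6 libraries and between 18.01 and 31.4 CPM in the others, and TERF2IP between 65.3 and 93.4 CPM against 55.2 and 110 CPM.

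Other values moved with ACD in these libraries. All 10 cardiomyocyte markers had a lower median in the 6 libraries, and their summed level was 15054 to 72537 CPM against 63554 to 148847 CPM in the others. Endothelial markers were summed to 1125 to 4824 CPM against 805 to 2609 CPM, and 6 of 6 had a higher median. The markers of fibroblasts (6 of 7), erythrocytes (4 of 4), T and NK cells (5 of 5) and B and plasma cells (4 of 4) also had higher medians. So had those of smooth muscle and pericytes (5 of 6), neutrophils (3 of 3) and Schwann cells (3 of 4). Of the macrophage markers 3 of 6 were higher, of adipocytes 2 of 4 and of proliferation 1 of 6. The summed ranges overlapped in each of these lists, as for T and NK cells with 1.25 to 281 CPM against 2.53 to 76.7 CPM. The library 4X0339, with a mitochondrial share of 51.7% as high as theirs but a median correlation of 0.911, had 10.03 CPM of ACD. The part of cell types, depth and mitochondrial share in the ACD level was not tested.

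In the RefSeq table of the chimpanzee assembly mPanTro3-v2.0, the ACD gene overlaps CARMIL2 by a short stretch and adjoins PARD6A and ENKD1. These neighbours, looked at after the ACD values were seen, were also higher in the 6 libraries. CARMIL2, an actin regulator of lymphocytes, was between 6.41 and 14.2 CPM there against a median of 1.56 CPM in the others, although 1 or more of the others reached 17.3 CPM. PARD6A, a cell polarity gene, was between 2.52 and 8.18 CPM against a median of 1.54 CPM in the others, and 2 of the 6 lay above the highest of the others (3.69 CPM). ENKD1, a gene of the cilium, was between 18.03 and 34.2 CPM against a median of 14.8 CPM, with 4 of the 6 above the highest other value of 24.1 CPM. Whether the counting used strand is not given in the sources used here, so that reads from the stretch shared by ACD and CARMIL2 cannot be told apart.

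To ask which members follow the content of mitochondrial transcripts, log2 CPM of each gene was compared with the mitochondrial share over the 38 animals (6 relations, two-sided permutation tests with 100000 permutations, adjusted by Benjamini-Hochberg over all 13121 genes). Of all genes 45.8% passed, and of the 6 members 2 did. TERF1 was lower in hearts with a higher share, with Pearson's r = -0.74 (permutation p = 1e-05, the smallest they can give, adjusted p = 0.000208) and Spearman's rho = -0.71 (permutation p = 2e-05). Of all genes, 2.21% had an r this low or lower. Without the 2 animals farthest in mitochondrial share r was -0.78. Without the 6 libraries it was -0.74 (n = 32, adjusted permutation p = 0.00177), or -0.56 without the 2 farthest of these, where 21.9% of genes passed. Within the RNA of 2018 it was -0.72 (n = 21, adjusted permutation p = 0.00165), where 47.5% of genes passed. Within that of 2016, where the share only reached 34.98%, it was -0.42 (n = 17, adjusted permutation p = 0.282), and 0.427% of genes passed. Libraries with a higher share also had lower totals on orthologous exons (Spearman's rho = -0.53 between total and share). The part of depth and RIN in the TERF1 relation was not tested.

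Of the other members, ACD was also past the threshold over all animals. Its values fall into the clusters named above, so that no pooled value is given. In the 32 other animals its r was -0.12 with rho = -0.22 (adjusted permutation p = 0.662 for r), within 2016 it was -0.50 with rho = -0.50 (n = 17, adjusted permutation p = 0.192 for r), and within the 6 libraries 0.49 with rho = 0.49 (exact permutation p = 0.336 for r, n = 6). TERF2 had r = -0.26 and rho = -0.17 over 38 animals (adjusted permutation p = 0.191 for r) and did not pass. TERF2IP had r = -0.36 and rho = -0.34 (adjusted permutation p = 0.0564 for r), and without the 6 libraries r was -0.53 and passed (adjusted permutation p = 0.0159), but it was -0.27 without the 2 animals farthest in mitochondrial share among these 32. With TMM library sizes TERF2 (-0.47) and TERF2IP (-0.53) were past the threshold as well when adjusted over the 6 relations, and so they were with the nuclear gene total, at -0.48 and -0.54. TINF2 had r = -0.51 in 2016 (adjusted permutation p = 0.181) and 0.54 in 2018 (adjusted permutation p = 0.0274), and POT1 0.48 (adjusted permutation p = 0.216) and -0.45 (adjusted permutation p = 0.0765). The TINF2 value of 2018 holds the 6 libraries, and in the 32 other animals r was -0.39 (adjusted permutation p = 0.0934). The difference between the years was not tested.

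**Figure D4:**
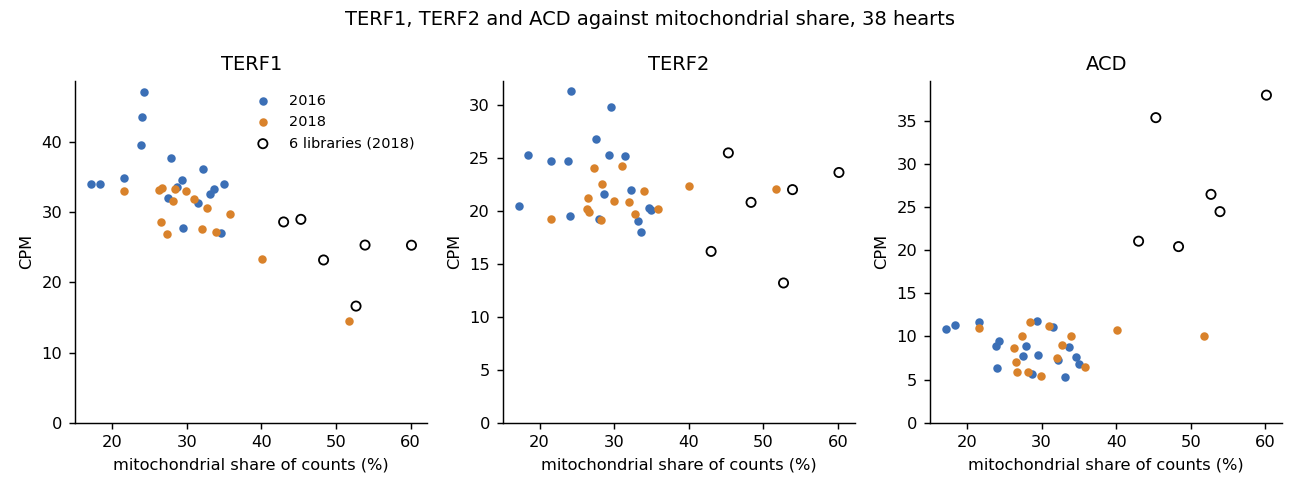
CPM of TERF1, TERF2 and ACD (vertical axes) against the share of counts on mitochondrial genes in percent (horizontal axes) in 38 hearts, coloured by extraction year, with the 6 libraries that stood apart as open circles. TERF1 falls along the axis (r = -0.74 on the log2 scale), TERF2 does so less (r = -0.26), and ACD is high only in the open circles.

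The extraction years were compared to see which members differ between them. The test was edgeR's quasi-likelihood test with sex in the model, adjusted by Benjamini-Hochberg over all 15790 genes tested. Of the 6 members, 2 passed, where 16.1% of all genes did (11.2% higher and 4.82% lower in 2018). TERF1 ran from 27.1 over a median of 34.02 to 47.0 CPM in 2016 and from 14.6 over 28.6 to 33.5 CPM in 2018. The years overlapped, with 11 of the 17 animals of 2016 above every animal of 2018 and 7 of the 21 of 2018 below every animal of 2016. TERF1 fell by 0.36 on the log2 scale in 2018 (SE 0.10, edgeR adjusted p = 0.0110). ACD ran from 5.32 over 8.76 to 11.7 CPM in 2016 and from 5.42 over 10.1 to 37.9 CPM in 2018. It rose by 0.53 on the log2 scale (SE 0.18, edgeR adjusted p = 0.0438).

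Neither passed without the 6 libraries. The log2 difference of ACD was then 0.05 (SE 0.12, edgeR adjusted p = 0.819) and that of TERF1 -0.20 (SE 0.09, edgeR adjusted p = 0.131), while 10.6% of genes still passed. TERF2 was at 23.2 ± 3.90 CPM in 2016 (SD, n = 17) and at 20.96 ± 2.74 CPM in 2018 (SD, n = 21), a log2 difference of -0.19 (SE 0.08) that did not pass (edgeR adjusted p = 0.0885). TERF2IP (-0.13, SE 0.09), TINF2 (-0.14, SE 0.08) and POT1 (-0.10, SE 0.17) did not pass either. The median mitochondrial share was 28.7% in 2016 and 32.7% in 2018, and the median RIN was 6.2 and 5.4. The years differed in their animals too. The median recorded age was 36 years in 2016 and 27 in 2018, and every animal with a note of infection was of 2018. Their part in these differences was not tested apart from RIN in the model, with which TERF1 (-0.31) and ACD (0.55) both still passed. Among Yerkes animals alone (9 of 2016 and 12 of 2018) 0 of the 6 passed, beside 2.08% of genes, with log2 differences of -0.29 for TERF1 (SE 0.15, edgeR adjusted p = 0.355) and 0.65 for ACD (SE 0.29, edgeR adjusted p = 0.259).

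**Figure D5:**
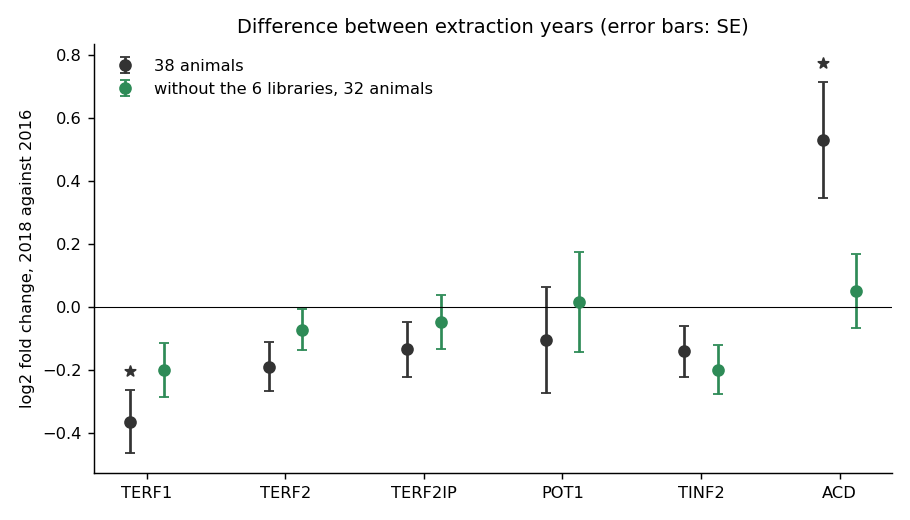
Log2 fold change of each shelterin gene between RNA of 2018 and RNA of 2016 (vertical axis) with its SE, over 38 animals in black and over the 32 animals left without the 6 libraries in green. Stars mark an adjusted p under 0.05. ACD falls from 0.53 to 0.05 and TERF1 shrinks from -0.36 to -0.20.

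Of the other genes of telomere maintenance, 57 were tested, and 6 were higher and 3 lower in 2018, again beside 11.2% and 4.82% of all genes. HMBOX1 rose by 0.67 on the log2 scale (SE 0.13, edgeR adjusted p = 0.000627), and ZBTB48, a zinc finger protein that binds the telomere repeat and trims long telomeres, by 0.68 (SE 0.15). RTEL1 (1.22, SE 0.29), NR2C1 (0.81, SE 0.20) and TELO2 (0.52, SE 0.15), a chaperone of the ATM and ATR kinases, were higher too. The genes that fell, named after their values were seen, were FEN1 (-0.73), a flap endonuclease, and XRCC5 (-0.27) and XRCC6 (-0.29), the Ku subunits that bind DNA ends. FEN1 had a median of 2.77 CPM and at most 5.80 CPM, under the filter of 6 CPM used for dispersion. Without the 6 libraries 4 of the 57 were higher and 0 lower, where 10.6% of all genes passed in either direction. Of the 9 genes, 3 (HMBOX1, ZBTB48 and NR2C1) passed again. The other of the 4 genes, TP53BP1 (0.32), a reader of broken DNA ends, was also named after its value was seen.

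Sex, age, RIN and virus notes were then compared in the same way, with extraction year in the models of the first 3. No member passed. For sex, 0 of 6 did, beside 0.215% of all genes by edgeR and 0 members by DESeq2. ACD was 0.30 higher in males on the log2 scale (SE 0.18, edgeR adjusted p = 0.692), at 13.8 ± 10.5 CPM (SD, n = 16) against 10.1 ± 4.56 CPM in females (SD, n = 22), and without the 6 libraries the difference was -0.04. POT1 was lower in males by 0.24 (SE 0.17), TERF2IP by 0.14 (SE 0.09) and TERF2 by 0.11 (SE 0.08), none of them past the threshold.

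Age was recorded for 34 animals, and since shortening of telomeres with age is well known, its slope was taken for each member. The slope of TERF2 was 0.0014 per 10 years on the log2 scale (SE 0.031, edgeR adjusted p = 0.991) and that of TERF2IP 0.0035 (SE 0.036). TINF2 had 0.0082 (SE 0.035), TERF1 0.03 (SE 0.04), POT1 0.06 (SE 0.07) and ACD -0.10 (SE 0.08). No slope was further from 0 than 2 SE. Over all genes, 0.0% passed by edgeR, with 1209 at an unadjusted p under 0.05, and 5 passed by DESeq2.

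With RIN, 0.0% of genes passed by edgeR, 2276 were at an unadjusted p under 0.05, and 161 passed by DESeq2. The slope of TERF1 was 0.06 per unit of RIN (SE 0.03, edgeR adjusted p = 0.437). Without the 6 libraries it was 0.09 (SE 0.03) and passed (edgeR adjusted p = 0.0414), beside 6.37% of all genes. The other 5 members did not pass in either set of animals. TERF2 had a slope of -0.0094 (SE 0.026) over all animals.

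The 7 animals with a note of infection were compared with the other 14 of 2018, which hold 4X0357, the animal noted as exposed and negative. By edgeR 0.0% of genes passed, with 358 at an unadjusted p under 0.05, and by DESeq2 1 gene did. TINF2 was 36.2 ± 3.16 CPM in the animals with the note (SD, n = 7) and 44.3 ± 13.2 CPM in the others (SD, n = 14), a log2 difference of -0.19 (SE 0.13). Without the libraries that stood apart TINF2 was 36.1 ± 3.46 CPM in the animals with the note (SD, n = 6) and 37.2 ± 7.73 CPM in the others (SD, n = 9), and the log2 difference was -0.05 (SE 0.13). TERF2 was 20.7 ± 2.69 CPM and 21.1 ± 2.85 CPM, a log2 difference of 0.03 (SE 0.14). The fit uses TMM library sizes with sex in the model, unlike the CPM means, and its sign is the other way from theirs. Neither difference was larger than the spread. Leaving out 4X0357 gave 0 members past the threshold as well, with 0.05 for TERF2 (SE 0.14) and -0.21 for TINF2 (SE 0.13). All animals with the note came from one center, so that virus and center cannot be told apart.

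Whether the members of one complex vary together was asked with the 15 pairs of genes over the 38 animals. By Pearson's r 1 pair was past an adjusted permutation p of 0.05, TINF2 and ACD, and by Spearman's rho POT1 and ACD passed as well (adjusted permutation p = 0.0433 for either rho). Given the clusters of ACD, no pooled value is given. TINF2 and ACD were taken within the 32 other animals, where r was 0.36 and rho 0.32 (adjusted permutation p = 0.168 for r), and within 2016, where r was 0.57 and rho 0.55 (n = 17, adjusted permutation p = 0.134 for r). POT1 and ACD had r = -0.31 and rho = -0.40 in the 32 animals (adjusted permutation p = 0.242 for r), and r = -0.57 and rho = -0.69 within 2016 (adjusted permutation p = 0.134 for r and 0.0435 for rho). TERF2 and ACD had r = 0.41 and rho = 0.52 in the 32 animals (adjusted permutation p = 0.113 for r and 0.0439 for rho). None of the 10 pairs without ACD passed by r over 38 animals, and their r lay between -0.11 and 0.34.

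The highest of these over 38 animals was that of TERF2 and TINF2, which are bound to each other in the complex, with r = 0.34 and rho = 0.39 (adjusted permutation p = 0.119 for r and 0.0855 for rho), and with r = 0.44 without the 2 animals farthest in TERF2. It was 0.40 in 2016 and 0.27 in 2018. TERF1 and TERF2IP had r = 0.34 and rho = 0.23 (adjusted permutation p = 0.119 for r), and r = 0.20 without the 2 animals farthest in TERF1. TERF2 and TERF2IP, although bound as partners, had r = 0.16 and rho = 0.17 (adjusted permutation p = 0.568 for r). The pairs were open to the choice of library size, since 6 of 15 passed by r with TMM library sizes. Among them were TERF1 with TERF2 (0.50) and TERF1 with TERF2IP (0.54), while TINF2 and ACD no longer passed.

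The genes most like each member over the 38 animals were sought by Pearson's r of log2 CPM, as a description, among genes with a symbol that passed the filter. The libraries share depth and batch, so that such likeness holds these too. TERF1 was most like CASD1 (0.88), a sialic acid acetyltransferase, RBM27 (0.86), an RNA-binding protein, and WASHC5 (0.85), a subunit of the WASH complex on endosomes. TERF2 was most like INTS5 (0.73), a subunit of Integrator, AAR2 (0.70), a splicing factor of the U5 particle, and SMARCB1 (0.69), a subunit of the SWI/SNF chromatin remodeller. TERF2IP was most like PROS1 (0.72), the anticoagulant protein S, RHOA (0.71), a small GTPase, and PLEKHA4 (0.70).

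POT1 was most like ZNF233 (0.75), AMN1 (0.75) and KIN (0.74). TINF2 was most like TNFAIP8L3 (0.87), SLC39A1 (0.87), a zinc transporter, and RAB5C (0.86), a GTPase of early endosomes. ACD was most like SIPA1 (0.94), an activator of the Rap GTPase, MICAL1 (0.93), which oxidizes actin, and RCE1 (0.93), a protease of prenylated proteins. No shelterin gene was among the 3 genes most like another. Without the 6 libraries CASD1 stayed the most like TERF1 (0.87) and PROS1 and PLEKHA4 among the 3 most like TERF2IP, SIPA1 stayed among those of ACD (0.80), and the 3 of TERF2, POT1 and TINF2 were all other genes.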

How the data were processed

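RNA-seq data from 38 chimpanzee hearts were analysed. The deposited gene count table holds raw counts per annotated gene, which the authors obtained from STAR 2.6.1b alignments to Pan_tro_3.0. The deposited orthologous exon table holds counts from featureCounts 1.6.3, which gave library totals only (median 41226040), since its human identifiers could not be paired with symbols. A normalized matrix gives a score for each gene in 37 animals, which the authors made by standardizing genes and quantile normalizing animals. Left out were 52 columns of other individuals, whose names match no sample here.

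CPM is the gene count over the orthologous exon total, times 1000000. Labels of sex matched genes of chromosome Y in every animal. Year, sex, age, RIN, center and virus notes came from the study's sample table. Differential expression used edgeR 4.0.16 after TMM scaling and filterByExpr, or DESeq2 1.42.0 instead, and the threshold was an adjusted p of 0.05. Overdispersion was fitted by maximum likelihood with the total as offset (MASS 7.3.60.0.1 checked), the LOESS span was 0.75, and SEs came from 1000 redraws of the animals. Log2 CPM used a pseudocount of 0.5. Permutation tests were two-sided, and exact for 6 libraries. Relations with mitochondrial share were adjusted over all 13121 genes, which was added after seeing the data. All tests had the animals as their units, taken as independent although some are first-degree relatives. Other tools were R 4.3.3, Python 3.11.15, numpy 2.4.6, pandas 2.3.3, scipy 1.17.1 and matplotlib 3.10.9. On simulated data, edgeR found 127 of 200 genes changed 2-fold between years among 15790 genes with 3 false calls, and true and estimated ln overdispersion had r = 0.980 over 13121 genes.

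Members, lists and tests were chosen with earlier results of these data known. Named are the 6 members, genes of the telomere lists past the threshold (up to 5 per comparison by p) or with the 3 lowest and 3 highest dispersions, and the 3 genes most like each member. Alternatives were other tools, size factors, filters, spans, covariates and sets of animals. Leaving out the 6 libraries that stood apart or 4X0357, and the normalized matrix in correlations, were added after seeing the data.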

Additional observations from a re-analysis of the deposited data

Results flagged for a closer look

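In the 7 animals of 2018 with a virus note, 3 members had a sample far from the other 6. TERF1 was 14.6 CPM in 4X0339, where the nearest other animal was at 28.6 CPM. POT1 was 56.7 CPM in 4X0354, where the nearest was at 30.7 CPM, and ACD was 21.03 CPM in 4X0354, where the nearest was at 11.7 CPM. RIN was 2.5 in 4X0339 and 3.3 in 4X0354, and its part was not tested. Chance flags about 1 in 20 groups, and 12 groups were screened.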

How the results depend on the processing

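The count of members past the threshold between years was 2. It was 1 without 537 and Little_R, where ACD was lost, and 0 among Yerkes animals alone or without the 6 libraries. The count of other telomere genes there fell from 9 to 2 among Yerkes animals and to 4 without the 6 libraries. Without the 6 libraries 1 member and 5 other telomere genes passed with RIN, where none did before. The dispersion of TINF2 moved to -1.36 with TMM library sizes. The dispersion of TERF2 moved to -0.72 with the gene count total (where TERF1 moved to -0.06 and TERF2IP to -0.45), -2.16 in RNA of 2018 and -1.02 in RNA of 2016. Leaving out each animal in turn kept it between -1.91 and -1.59, kept POT1 between -0.18 and 0.18, and left 4 to 5 members below 0. ACD reversed to -0.38 with the gene count total, -0.80 in RNA of 2016 and -0.79 without the 6 libraries, and POT1 to -0.13 in RNA of 2018. Pairs of members past the threshold were 1, but 6 with TMM, 5 with the nuclear gene total, and 0 without 537 and Little_R, without the 6 libraries (also centred within year) or in the normalized matrix. There TERF2 and TINF2 (-0.22) and TINF2 and ACD (-0.33) were reversed. Members past the threshold with mitochondrial share were 2, but 4 with TMM or the nuclear gene total. Reversed there were POT1 (0.14) and ACD (-0.12) and TINF2 (-0.39) without the 6 libraries, the same when also centred (0.13, -0.13 and -0.30), and TINF2 without 537 and Little_R (-0.0705). The cause was not tested.

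The other reversals were of differences that passed in neither setting, on the log2 scale. Without the 6 libraries they were POT1 by year (0.0165), TERF1 (0.0778) and ACD (-0.0432) by sex, POT1 (0.0246) and TINF2 (-0.0449) by RIN, and TERF1 (-0.0731), TERF2 (-0.0054), POT1 (-0.43) and ACD (0.17) by virus note. Without 537 and Little_R they were TINF2 by RIN (-0.0335) and POT1 by virus note (-0.0651). In RNA of 2016 alone they were TERF1 (-0.0098), TERF2 (-0.0284) and TERF2IP (-0.0184) by age, and TERF2 (0.0054), TERF2IP (-0.0778), POT1 (0.19) and TINF2 (-0.0608) by RIN. In RNA of 2018 alone they were POT1 (-0.0307) and TINF2 (-0.0143) by age and ACD (0.0396) by RIN. By DESeq2, TINF2 by RIN was reversed (-2.71e-05).

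The comparison of years in the orthologous exon table was not run, since its rows could not be matched to the members. Depth limits ACD most, with 221 counts in its lowest library. No paired analysis was possible because the animals form 1 group and their numbers follow the accession order.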
